A study of Mus musculus with 6 samples.

Results

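The replication-dependent histone genes were followed through an ATAC-seq study of mouse T follicular helper (Tfh) cells, the CD4 T cells that help B cells in germinal centres. ATAC-seq reads out open chromatin as the number of fragments that a transposase cuts from a region. Members were all peaks whose gene symbol began with Hist1h, Hist2h, Hist3h or Hist4h. There were 88 such peaks at 48 genes, among 282898 peaks at 19109 genes in all. By the class named in the symbol, 5 genes belong to the linker histone H1, 13 to H2A, 8 to H2B, 10 to H3 and 12 to H4. Among the H2A genes, Hist1h2al is a transcribed pseudogene in RefSeq.

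Tfh cells were sorted from untreated C57BL/6 mice into 3 populations, called Tfh21, Tfh214 and Tfh4, from animals that were wild-type for Stat6 (WT) or lacked it (KO, knockout). Stat6 is the transcription factor that carries the interleukin-4 receptor signal to the nucleus. There was 1 library for each genotype and population, 6 in all, made from 50000 cells and from pools of 10 mice per genotype. The organ, the age of the mice and the part of Stat6 that the knockout lacks are not given in the sources used here. Any effect of genotype cannot be told apart from that of the mice pooled or the library made, and p-values across libraries measure only the spread between these 6 libraries.

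Replication-dependent histone genes supply the histones that package newly copied DNA, and are transcribed mainly during S phase in nuclear foci organised by the coactivator NPAT. They lack introns and lie in clusters of short genes, where H2A and H2B genes often share a promoter and point away from each other. Their mRNAs end in a stem-loop bound by SLBP instead of a poly(A) tail. Dividing T cells depend on them, whereas replication-independent variant histones are made outside S phase too.

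Promoters of 6 members are printed. Among members with exactly 1 RefSeq promoter window, they have the most reads of their class or of their cluster. Hist1h1c, Hist3h2a, Hist1h2bb, Hist2h3b and Hist1h4h lead H1, H2A, H2B, H3 and H4, and Hist4h4 is the only gene of Hist4. Hist2h3b also holds the one member peak called in a contrast. Hist1h1c, Hist1h2bb and Hist4h4, like some members not printed, have KO values above all WT values. Each line holds the 200 bases before the RefSeq start, 5′ to 3′ on the gene's strand, and capitals mark matches, on either strand, to the motifs spelled out in the next paragraph. Matches that do not lie wholly in these 200 bases are not marked, among them GGTCCG in the Hist1h4h window.
Hist1h1c: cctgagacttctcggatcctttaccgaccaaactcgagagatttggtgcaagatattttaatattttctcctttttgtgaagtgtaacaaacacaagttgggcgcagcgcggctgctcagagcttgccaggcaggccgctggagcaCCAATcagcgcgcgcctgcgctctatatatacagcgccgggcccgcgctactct
Hist2h3b: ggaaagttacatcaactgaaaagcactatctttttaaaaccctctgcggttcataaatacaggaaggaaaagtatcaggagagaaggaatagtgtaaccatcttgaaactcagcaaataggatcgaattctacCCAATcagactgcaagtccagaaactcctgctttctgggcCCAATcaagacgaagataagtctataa
Hist1h2bb: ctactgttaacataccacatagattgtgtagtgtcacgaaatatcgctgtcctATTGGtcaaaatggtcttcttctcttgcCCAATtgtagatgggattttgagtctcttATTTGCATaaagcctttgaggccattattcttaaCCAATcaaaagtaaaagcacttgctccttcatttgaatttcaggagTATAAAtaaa
Hist1h4h: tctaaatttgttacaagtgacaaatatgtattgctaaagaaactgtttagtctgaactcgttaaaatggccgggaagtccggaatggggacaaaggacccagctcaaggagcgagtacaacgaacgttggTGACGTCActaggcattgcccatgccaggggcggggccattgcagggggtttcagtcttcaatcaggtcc
Hist3h2a: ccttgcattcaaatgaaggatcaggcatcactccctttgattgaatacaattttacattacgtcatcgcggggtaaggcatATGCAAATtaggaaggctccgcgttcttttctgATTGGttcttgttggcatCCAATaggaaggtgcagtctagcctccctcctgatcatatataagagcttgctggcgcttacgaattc
Hist4h4: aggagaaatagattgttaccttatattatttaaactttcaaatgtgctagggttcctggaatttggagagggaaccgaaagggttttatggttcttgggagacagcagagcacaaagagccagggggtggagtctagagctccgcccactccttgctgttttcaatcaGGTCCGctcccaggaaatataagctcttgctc
In order, these windows lie in build GRCm38.p6 at chr13:23738607-23738806 on the plus strand, chr3:96268454-96268653 on the plus strand, chr13:23746534-23746733 on the plus strand, chr13:23530844-23531043 on the plus strand, chr11:58954485-58954684 on the plus strand and chr6:136804432-136804631 on the minus strand. Their newer RefSeq symbols are H1f2, H3c13, H2bc3, H4c8, H2aw and H4f16.

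Across the 43 of 48 members with a RefSeq promoter window (250 bases before to 50 after the start, GRCm38.p6), the classes held different motifs. CCAAT, a sequence that NF-Y binds, was in all 5 H1, 12 H2A, 7 H2B and 8 H3 windows but in 3 of 11 H4 windows. That made 81.4% of members against 37.9% of the 27025 RefSeq genes with a window. TATAAA, the TATA box, was in 60.5% of members and 14.2% of all genes. ATTTGCAT, the octamer that POU2F1 binds, was in 5 of 12 H2A and 2 of 7 H2B windows and in no H1, H3 or H4 window, which made 16.3% against 1.75%. GGTCCG, a motif added after the sequences were read, was in 10 of 11 H4 windows, 1 of 7 H2B windows and 1 of 8 H3 windows, which made 27.9% against 8.39%. The E2F-type sequence TTTCGCGC was in 14.0% of members and 0.318% of all genes, and the form TTTGGCGC was in none of the 43 and in 0.537%. TGACGTCA, the cyclic AMP response element, was in 6.98% against 1.88%. All motifs were searched on both strands, no motif contains another, and a match describes letters, not binding. Median GC content was 45.3% in the member windows and 52.7% over all genes.

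The libraries held 798555 to 1373218 reads in listed peaks, so that 1 read was worth 0.728 to 1.25 CPM (the deposited unit, reads scaled to a fixed total of reads in peaks). Reads at annotated transcription start sites (TSS) made up 27.6 to 31.5% of the WT libraries and 29.7 to 36.4% of the KO libraries. Stat6 itself had 6 peaks summing to 42.2 to 54.3 CPM in WT and 54.2 to 63.9 CPM in KO, which checks no label because the deleted part is not given. All 10 Tfh and T cell markers had a peak, with sums of 416.5 to 485.2 CPM in WT and 397.2 to 547.0 CPM in KO. For B cells 6 of 8 markers had one, with 125.6 to 163.6 CPM in WT and 109.4 to 133.2 CPM in KO, and the defining Ms4a1 and Cd79a had no listed peak. Of 5 CD8 T and NK markers 3 had one (15.0 to 25 CPM over the libraries), with none at Cd8a and Ncr1. Of 6 myeloid symbols 5 had one (43.8 to 65.9 CPM), and the other, Emr1, is an older name of Adgre1, which had one. In such bulk samples, fewer cells with an open site and a less open site per cell cannot be told apart.

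Of the 88 member peaks, 71 were assigned to a TSS, 12 to a transcription end, 3 to a 5' UTR exon and 2 to a 3' UTR exon. The TSS peaks carried 7943 of the 8530 member reads. In 37 of 48 genes the strongest peak lay over the start, and in 8 more it lay near it. The exceptions were Hist1h1b, Hist1h1d and Hist1h4n, whose strongest peak was at the gene's end, and the last of them is named here because it completes that count. In Hist1h1b, an H1 linker histone gene, the peak at the end of the gene (chr13:21871044-21871759, mm9) held 177 reads. Hist1h1d, another H1 gene, had 109 reads at its end. A single peak was listed for 26 genes. The largest number was 8, at Hist1h2be, whose strongest peak (chr13:23712807-23713935, mm9) lay over a start and held 358 of its 559 reads. Of its other reads, 136 lay at 3 peaks of a second annotated start and gene end of the same symbol, and 65 at 4 UTR exon peaks of a longer transcript, so its sum covers more than 1 promoter.

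Hist1, on chromosome 13, held 39 genes and 72 peaks and fell into 4 stretches separated by gaps of more than 200 kb. The largest (chr13:23622042-23855747, mm9) held 25 genes, 50 peaks and 4502 reads over 233.7 kb. The next (chr13:21807918-21923648) held 10 genes, 17 peaks and 1499 reads, and the smallest of the 3 (chr13:22127282-22135856) held 3 genes and 425 reads. Far from these lay Hist1h2al, with 1 peak of 13 reads, which RefSeq lists as a transcribed pseudogene. Hist2 (chr3:96023426-96074153) held 6 genes, 11 peaks and 1316 reads, Hist3 (chr11:58761856-58768642) 2 genes and 497 reads, and Hist4 (chr6:136752101-136753289) 1 gene, 3 peaks and 278 reads. Between the members, 29 other peaks lay inside these stretches at 5.61 to 8.21 CPM per kb of peak, and the only other gene named there was Hfe, a regulator of iron uptake, with 86 reads.

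**Figure D1:**
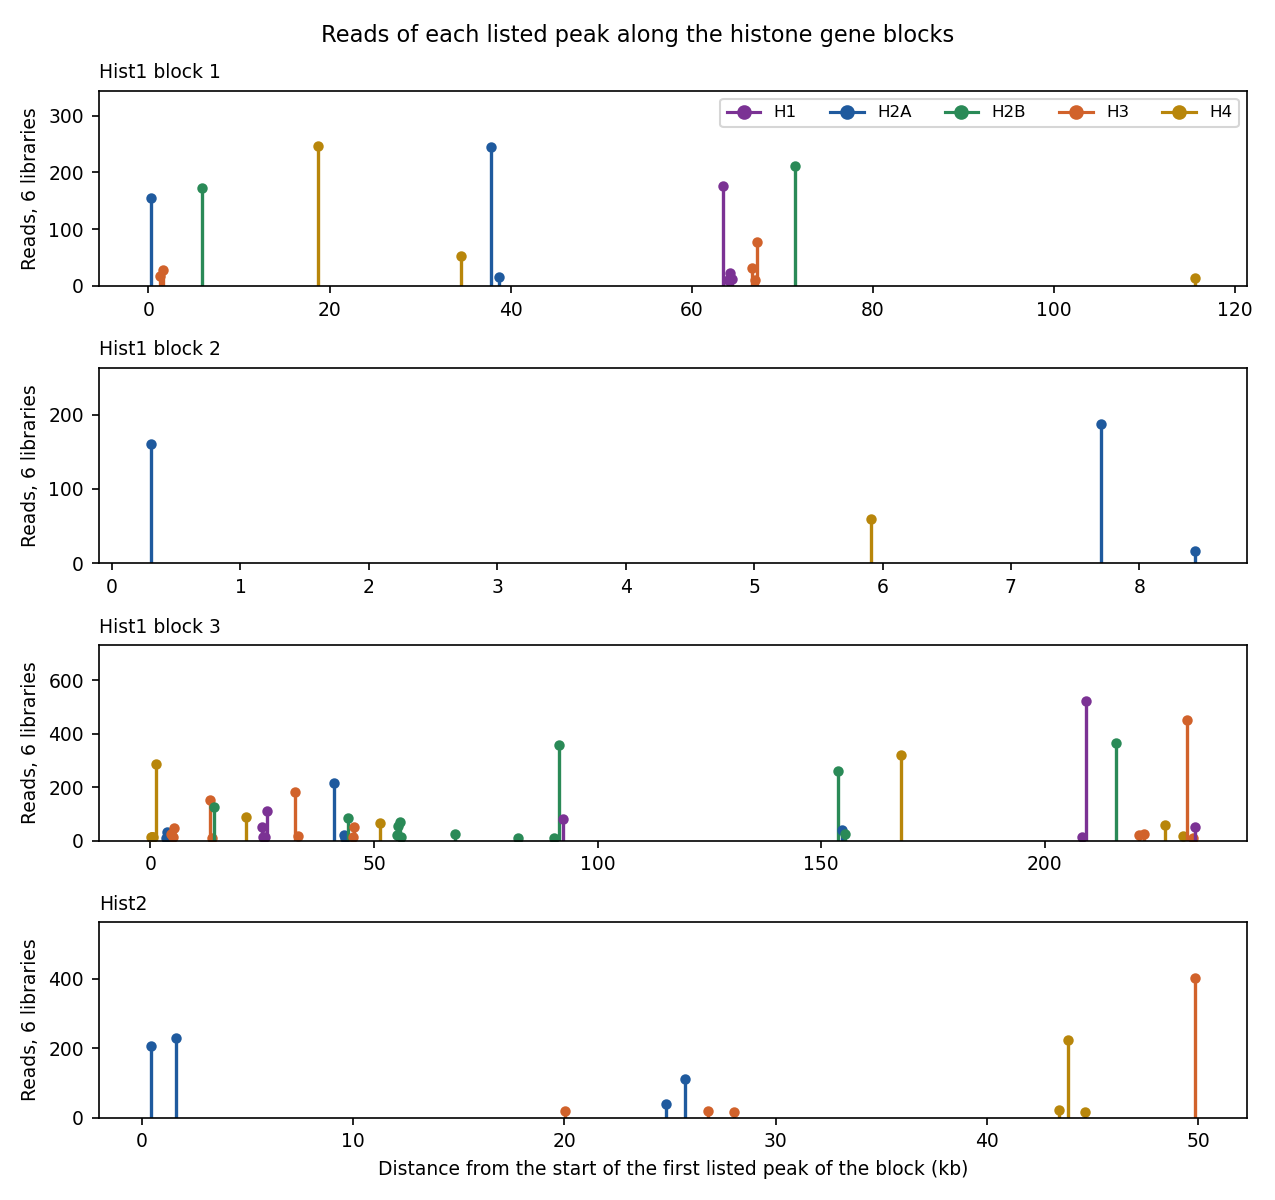
Each stem is a member peak, placed by its distance in kb from the first listed peak of its stretch, with its reads summed over the 6 libraries on the vertical axis and its class in colour. Blocks 1, 2 and 3 are the Hist1 stretches with 10, 3 and 25 genes, Hist2 is below them, and a few tall peaks stand among many under 30 reads (42 of the 88 member peaks).

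RefSeq names 70 mouse loci with an older symbol of these 4 families, and 22 of them carried no peak under their name. The windows of 10 H2A and H2B pairs overlap head to head. Both partners had a peak in 1 pair (Hist1h2bf and Hist1h2ad), 1 partner in 6 and neither in 3. Each peak carries a single symbol, so a shared start region is counted for 1 partner only. Within a core histone class, coding sequences of different copies are often nearly identical, while the H1 genes encode distinct subtypes. How reads that match several copies were placed is not given in the sources used here. For core histone genes the split of reads between copies is uncertain for that reason.

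Per kb of listed peak, the member genes had a median of 31.2 CPM over the 6 libraries, against 8.28 CPM for all genes with a peak, most of whose peaks are not at a TSS. At start sites alone the distance was small: member TSS peaks stood at 30.3 to 37.2 CPM per kb over the libraries and all TSS peaks at 26.2 to 34.5, while the TSS peaks averaging 20 reads or more stood at 37.7 to 51.6. The class medians per kb were 26.6 CPM for H1, 35.8 for H2A, 36.1 for H2B, 20.8 for H3 and 31.2 for H4. Member TSS peaks had a median length of 310 bases and 51 reads over the 6 libraries, against 443 bases and 32 reads for all TSS peaks. Among the 29 member genes with a mean of at least 20 reads, the minimum used for tests, the highest levels per kb were 51.6 CPM for Hist1h2ae, 46.3 for Hist1h2bh and 45.5 for Hist1h1c. The lowest were 19.3 for Hist1h3i and 19.8 for Hist1h1d. Hist1h2bh and Hist1h3i are named here after their values were seen. The listed Hist1h2bh peak lay at -824 bases from the Hist1h2bh start, so its level is not that of the start itself. By these distances, that start falls inside a peak labelled Hist1h3f.

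**Figure D2:**
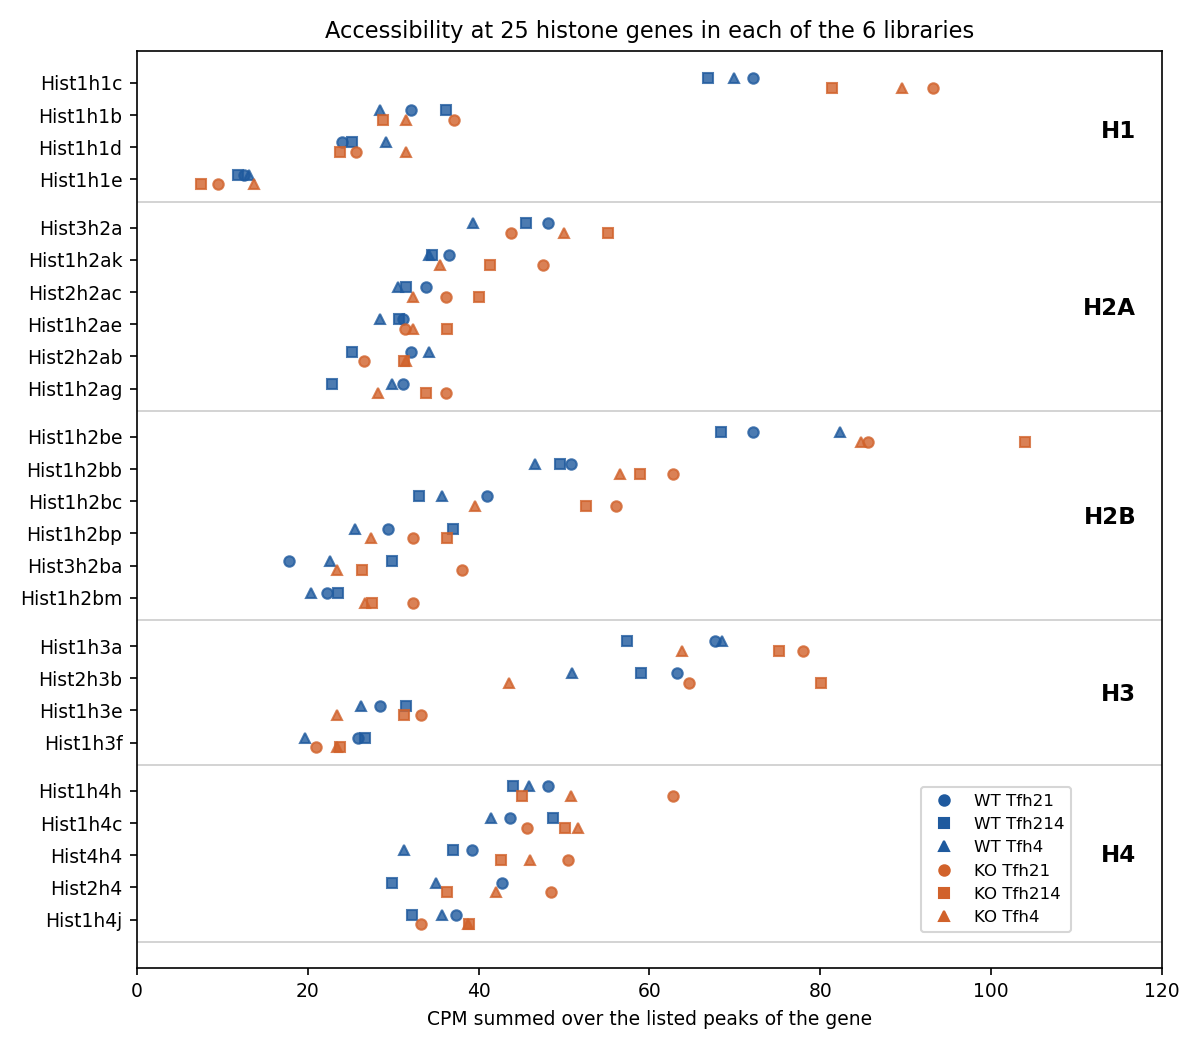
Points show CPM summed over the peaks of a gene (horizontal axis) in each library for the 25 members described by name, with genotype in colour and population in shape. Hist1h1c, Hist1h2bb and Hist1h2be show the 3 KO points to the right of the 3 WT points, whereas in most other genes the genotypes overlap.

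Reads were unevenly spread over the genes: the 4 strongest held 23.0% of the member reads, the 10 strongest 45.4%, and the 25 described by name 80.9%. The 19 members below the minimum had 13 to 88 reads each. Levels below are CPM summed over a gene's peaks, not divided by length, and are given for the libraries in the order Tfh21, Tfh214 and Tfh4.

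Among the linker histones, which bind DNA between nucleosomes, Hist1h1c was the strongest. It stood at 72.1, 66.8 and 69.9 CPM in WT and at 93.2, 81.4 and 89.6 CPM in KO. All 3 KO libraries lay above all 3 WT libraries, with means of 69.6 ± 2.67 CPM (SD, n = 3) and 88.1 ± 6.07 CPM (SD, n = 3). Hist1h1b had 32.1, 36.2 and 28.4 CPM in WT and 37.1, 28.8 and 31.5 CPM in KO, with overlapping groups. In Hist1h1d the values were 24.0, 25.2 and 29.1 CPM in WT and 25.7, 23.8 and 31.5 CPM in KO, and Tfh4 was highest in both genotypes. Hist1h1e had only 80 reads over the 6 libraries, at 12.5, 11.8 and 13.1 CPM in WT and 9.51, 7.51 and 13.7 CPM in KO. It fell under the minimum for tests, as did Hist1h1a with 51 reads.

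H2A pairs with H2B in the nucleosome core. Its strongest gene was Hist3h2a, at 48.1, 45.6 and 39.3 CPM in WT and 43.8, 55.1 and 50.1 CPM in KO. Hist1h2ak had 36.5, 34.6 and 34.2 CPM in WT and 47.6, 41.3 and 35.5 CPM in KO. The groups overlapped in Hist3h2a and Hist1h2ak. Hist2h2ac stood at 33.8, 31.5 and 30.6 CPM in WT and 36.2, 40.1 and 32.3 CPM in KO. Hist1h2ae gave 31.2, 30.7 and 28.4 CPM in WT and 31.4, 36.3 and 32.3 CPM in KO. In Hist1h2ae the lowest KO library lay just above the highest WT library, and in Hist2h2ac the groups overlapped. For Hist2h2ab the WT values were 32.1, 25.2 and 34.2 CPM and the KO values 26.6, 31.3 and 31.5 CPM. Hist1h2ag gave 31.2, 22.8 and 29.9 CPM in WT and 36.2, 33.8 and 28.3 CPM in KO. In both genes the spread inside WT was as wide as the distance between genotypes.

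H2B genes held the member with the most reads, Hist1h2be, at 72.1, 68.4 and 82.3 CPM in WT and 85.6, 103.9 and 84.8 CPM in KO. Its lowest KO library lay above its highest WT library, with means of 74.3 ± 7.18 CPM and 91.4 ± 10.8 CPM (SD, n = 3 each). Hist1h2bb had 50.8, 49.5 and 46.6 CPM in WT and 62.8, 58.9 and 56.5 CPM in KO, and the groups did not overlap (means 49.0 ± 2.14 CPM and 59.4 ± 3.17 CPM, SD, n = 3 each). In Hist1h2bc the values were 41.0, 33.0 and 35.7 CPM in WT and 56.1, 52.6 and 39.6 CPM in KO, where the KO Tfh4 library lay inside the WT range. Hist1h2bp showed no such order, with 29.4, 37.0 and 25.5 CPM in WT and 32.3, 36.3 and 27.5 CPM in KO. Hist3h2ba, from the small Hist3 cluster, had 17.8, 29.9 and 22.6 CPM in WT and 38.1, 26.3 and 23.4 CPM in KO. The distance between genotypes in Hist3h2ba was widest in Tfh21, and in Tfh214 WT was the higher. Hist1h2bm had 22.3, 23.6 and 20.4 CPM in WT and 32.3, 27.5 and 26.6 CPM in KO, without overlap.

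H3 carries many of the histone tail modifications. Hist1h3a stood at 67.7, 57.4 and 68.5 CPM in WT and 78.0, 75.1 and 63.8 CPM in KO. Hist2h3b had 63.2, 59.0 and 51.0 CPM in WT and 64.7, 80.1 and 43.6 CPM in KO. In Hist2h3b the Tfh4 library was the lowest of its genotype both times, and all its reads came from 1 peak over the start. Hist1h3e had 28.5, 31.5 and 26.2 CPM in WT and 33.3, 31.3 and 23.4 CPM in KO. For Hist1h3f the values were 25.8, 26.7 and 19.7 CPM in WT and 20.9, 23.8 and 23.4 CPM in KO. Of its 160 reads, 150 came from a peak at -186 bases from its start, which covers the start of Hist1h2bh. Genotypes overlapped in all 4 of these H3 genes.

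H4 is the partner of H3, and its genes encode one and the same protein. Hist1h4h had 48.1, 44.0 and 45.9 CPM in WT and 62.8, 45.1 and 50.9 CPM in KO. Hist1h4c stood at 43.6, 48.8 and 41.5 CPM in WT and 45.7, 50.1 and 51.7 CPM in KO. Both genes had overlapping groups, with each KO library above its own WT counterpart. Hist4h4, the only gene of Hist4, had 39.2, 37.0 and 31.3 CPM in WT and 50.4, 42.6 and 46.0 CPM in KO. Its groups did not overlap (means 35.8 ± 4.06 CPM and 46.3 ± 3.93 CPM, SD, n = 3 each). Hist2h4 gave 42.8, 29.9 and 35.0 CPM in WT and 48.5, 36.3 and 42.0 CPM in KO, lowest in Tfh214 in both genotypes. For Hist1h4j the values were 37.4, 32.2 and 35.7 CPM in WT and 33.3, 38.8 and 38.8 CPM in KO.

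KO against WT asks what loss of Stat6 goes along with at these genes. By deposited CPM 25 of 29 tested members stood higher in KO in the fit, but relative to the reads in all TSS peaks it was 15 of 29, and no member passed the test. KO was above WT in all 3 populations for 13 of the 29 tested members, in 2 for 11, in 1 for 5 and in no population for 0. The same count was not made over all genes, so it does not set the members apart. With the populations pooled, 63.4% of the 10825 tested genes had a KO to WT ratio above 1. By limma on log2(CPM + 1) of gene sums with genotype and population as terms, 0 of 29 members had an adjusted p under 0.05, where 6 of 10825 genes did (0.0554%), 1 higher and 5 lower in KO. Relative to the reads in all TSS peaks 66 genes were called, 65 of them lower in KO, and again 0 members. At an unadjusted p under 0.05 there were 4 members and 1202 genes. edgeR and DESeq2 on the recovered reads called 0 members too, with 4 and 1 genes called in all, and had 2 and 0 members at an unadjusted p under 0.05.

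The 4 members with the smallest limma p-values were Hist1h1c, Hist1h2bc, Hist1h2be and Hist4h4. Hist1h1c was higher in KO by 0.33 ± 0.12 (log2 ± SE, adjusted p = 0.332 by limma). Hist1h2bc differed by 0.42 ± 0.16 (adjusted p = 0.351) and Hist1h2be by 0.29 ± 0.13 (adjusted p = 0.385). For Hist4h4 the difference was 0.37 ± 0.16 (adjusted p = 0.409). Hist1h2bb and Hist1h2bm, whose groups did not overlap, differed by 0.27 ± 0.14 (adjusted p = 0.482) and 0.37 ± 0.21 (adjusted p = 0.523). Among all tested members 25 of 29 differences lay above 0 by deposited CPM, with a median of 0.158 against 0.071 for all tested genes. With median-of-ratios scaling it was 19 of 29, with medians of 0.087 and -0.001. Relative to the reads in all TSS peaks it was 15 of 29, with medians of 0.001 and -0.086. The direction over the list therefore depended on what the reads were scaled to, and on these gene sums the members' median lay above that of all genes under each of the 3 scalings.

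By class, the median KO minus WT difference by deposited CPM was 0.29 (log2) in H2B, with 6 of 7 tested genes above 0. It was 0.19 in H4 (5 of 5 above 0), 0.14 in H2A (7 of 9), 0.08 in H3 (4 of 5) and 0.04 in H1 (3 of 3). Groups did not overlap, with KO higher, in 6 of 29 members against 8.83% of all tested genes, namely Hist1h1c, Hist1h2ae, Hist1h2bb, Hist1h2be, Hist1h2bm and Hist4h4. KO was lower without overlap in 0 members against 3.39% of genes. Relative to TSS reads 2 of 29 members (Hist1h2bc and Hist1h2bm) were higher without overlap, against 2.13% of genes. Counting only TSS peaks, it was 5 of 26 members against 12.3%.

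When the 3 libraries of a genotype were pooled, the exact binomial 95% interval of the KO to WT ratio, which covers counting error only, lay above 1 for 4 of 29 members against 8.3% of genes. It lay below 1 for 0 members against 4.26% of genes. The 4 were Hist1h1c at 1.28 (1.07 to 1.52), Hist1h2bc at 1.34 (1.05 to 1.70), Hist1h2be at 1.21 (1.02 to 1.43) and Hist4h4 at 1.31 (1.03 to 1.67). The pooled ratio was above 1 in 24 of 29 members and in 63.4% of all tested genes. Among the 19 members with fewer reads the ratio ranged from 0.508 to 1.53, and no interval excluded 1.

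**Figure D3:**
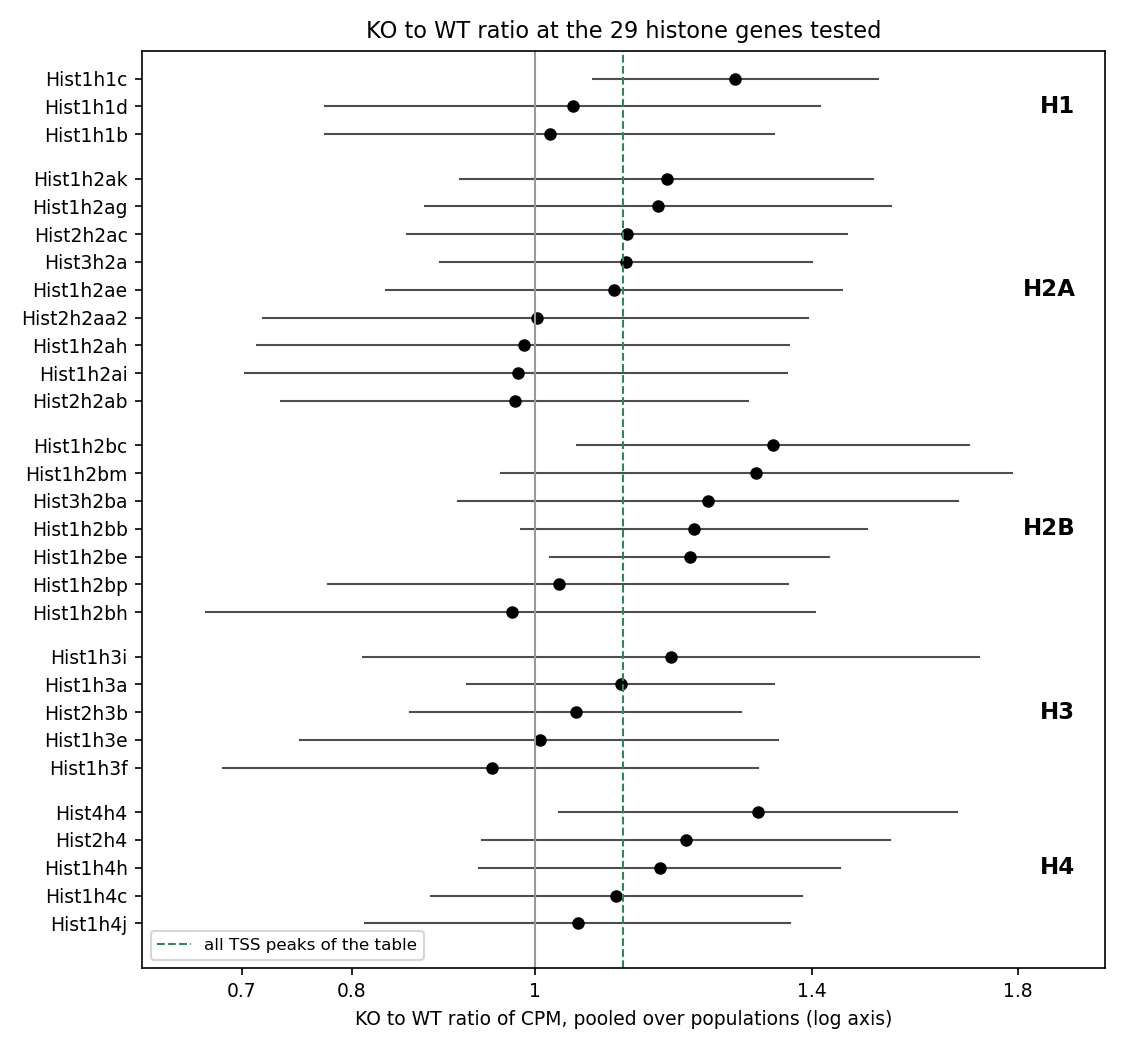
Points are KO to WT ratios of CPM pooled over the 3 populations (log axis) with exact binomial 95% intervals for the 29 tested members, ordered within class. The dashed line marks the ratio of 1.11 of all TSS peaks, and 4 intervals lie above 1.

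For KO minus WT, fits on peaks in place of gene sums gave more calls over all genes and none at the histone genes. Of 8986 single peaks, 77 were called between genotypes by limma, all higher in KO (0.857%), and 0 of 26 member peaks were. With median-of-ratios scaling 2 peaks were called and relative to TSS reads 1, so that count depended on the scaling. The smallest adjusted p of a member peak was 0.0795, at Hist1h1c. With sums of TSS peaks, 72 of 7087 genes were called, all higher in KO (1.02%), and 0 of 26 members were. There the member median was 0.160 and that of all genes with a TSS peak 0.170.

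Summed over a cluster, the counts were large enough to narrow the counting error. Hist1 stood at 888.0, 886.2 and 889.9 CPM in the WT libraries and at 1060.8, 1006.8 and 947.9 CPM in the KO libraries. The KO values all lay above the WT values, and within KO they ran from Tfh21 down to Tfh4. The means were 888.0 ± 1.85 CPM and 1005.2 ± 56.5 CPM (SD, n = 3 each; two-sided exact permutation p = 0.1, the smallest that 3 against 3 allows, adjusted p = 0.6 over 12 cluster tests). The WT SD was small beside the counting error of 1 library, whose exact Poisson 95% interval was 834 to 945 CPM in WT Tfh21. Pooled, the Hist1 ratio of KO to WT was 1.13 (1.07 to 1.18). It was 1.19 (1.10 to 1.3) in Tfh21, 1.14 (1.04 to 1.24) in Tfh214 and 1.07 (0.982 to 1.15) in Tfh4, without a test between the populations.

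The other clusters held fewer reads. Hist2 stood at 204.0, 167.5 and 187.2 CPM in WT and 210.3, 229.2 and 172.0 CPM in KO, a pooled ratio of 1.08 (0.965 to 1.20; exact permutation p = 0.4). Hist3 had 65.9, 75.5 and 61.9 CPM in WT and 81.8, 81.4 and 73.5 CPM in KO, a ratio of 1.16 (0.967 to 1.39; exact permutation p = 0.2). Hist4 is the gene Hist4h4 given above, with exact permutation p = 0.1 and adjusted p = 0.6. In Hist2 and Hist3 the genotypes overlapped, in Hist3 only through the WT Tfh214 and KO Tfh4 libraries. Within Hist1, the 3 larger stretches had KO to WT ratios of 1.14 (1.08 to 1.21), 1.11 (1.0 to 1.23) and 1.07 (0.883 to 1.31). The 29 other peaks inside the clusters had a ratio of 0.915 (0.767 to 1.09).

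**Figure D4:**
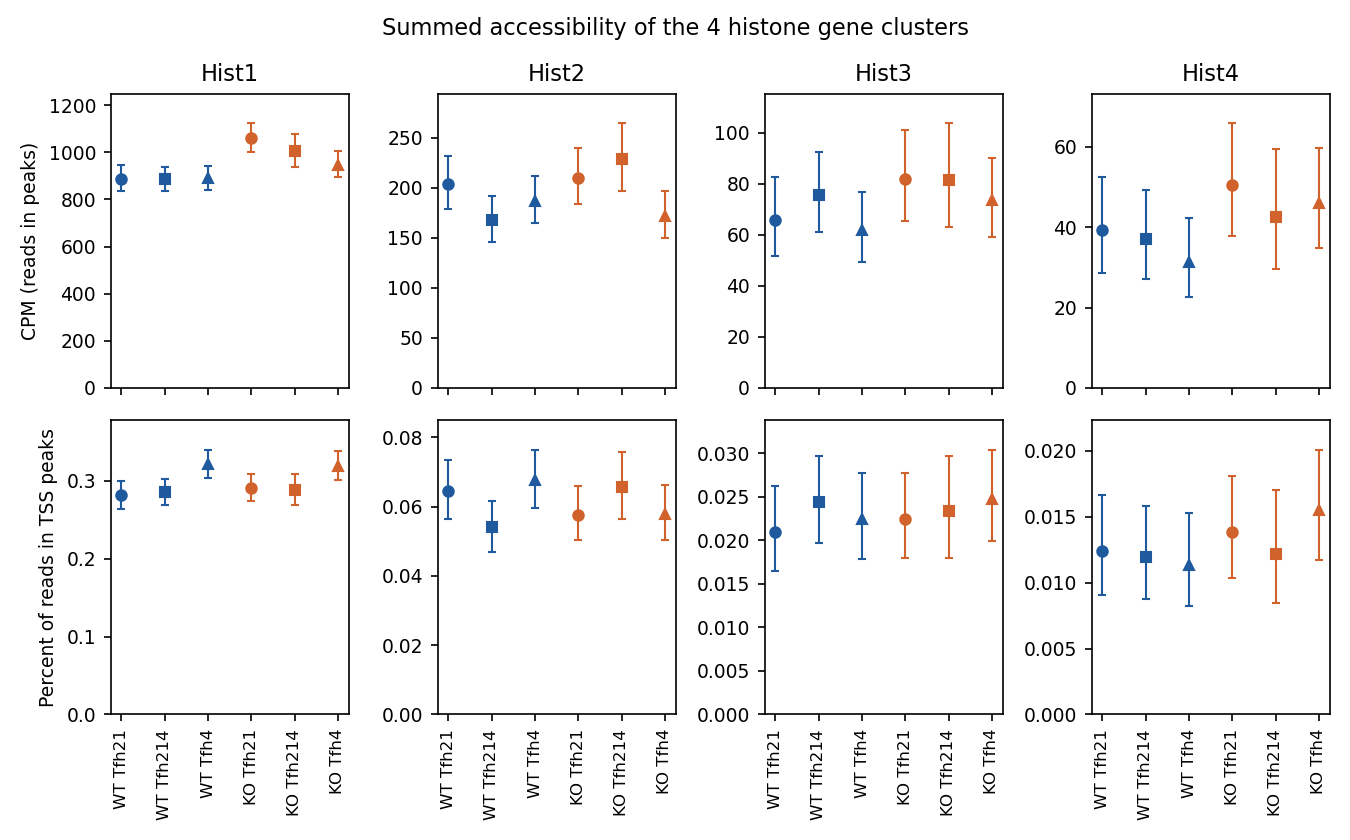
The upper row plots the CPM of each cluster in each of the 6 libraries and the lower row its percent of the reads in TSS peaks, with exact Poisson 95% intervals as bars, so each bar covers counting error only. In the upper row the KO values of Hist1 (947.9 to 1060.8 CPM) lie above the WT values (886.2 to 889.9 CPM), and in the lower row they overlap (0.282 to 0.322% in WT, 0.288 to 0.319% in KO).

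The KO excess of the clusters was about as large as that of all start sites. All member peaks together had a pooled KO to WT ratio of 1.13 (1.08 to 1.18), and the 20036 TSS peaks of the whole table had 1.11. Relative to TSS reads the members' ratio was 1.01 (0.970 to 1.06), Hist1 stood at 1.01 (0.965 to 1.06), Hist2 at 0.967 (0.867 to 1.08), Hist3 at 1.04 (0.869 to 1.25) and Hist4 at 1.18 (0.924 to 1.5). Hist1 held 0.282, 0.286 and 0.322% of the TSS reads in WT and 0.291, 0.288 and 0.319% in KO. The TSS share of the libraries was higher in KO in each population, and its part in the members' KO to WT ratios was not tested beyond these rescaled values.

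By class, the pooled ratio was largest for H2B, at 1.20 (1.09 to 1.31) by deposited CPM and 1.07 (0.983 to 1.17) relative to TSS reads. H4 had 1.14 (1.04 to 1.25) and 1.02 (0.932 to 1.12), H1 1.12 (0.993 to 1.27) and 1.01 (0.892 to 1.14). H3 had 1.09 (0.992 to 1.21) and 0.983 (0.891 to 1.08), and H2A 1.08 (0.990 to 1.18) and 0.972 (0.890 to 1.06), so H3 and H2A changed side with the scaling. The shares of the 5 classes among member reads were steady over the libraries, at 10.8 to 13.9% for H1, 22.4 to 25% for H2A, 22.1 to 24.7% for H2B, 17.9 to 20.1% for H3 and 19.5 to 22.8% for H4.

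**Figure D5:**
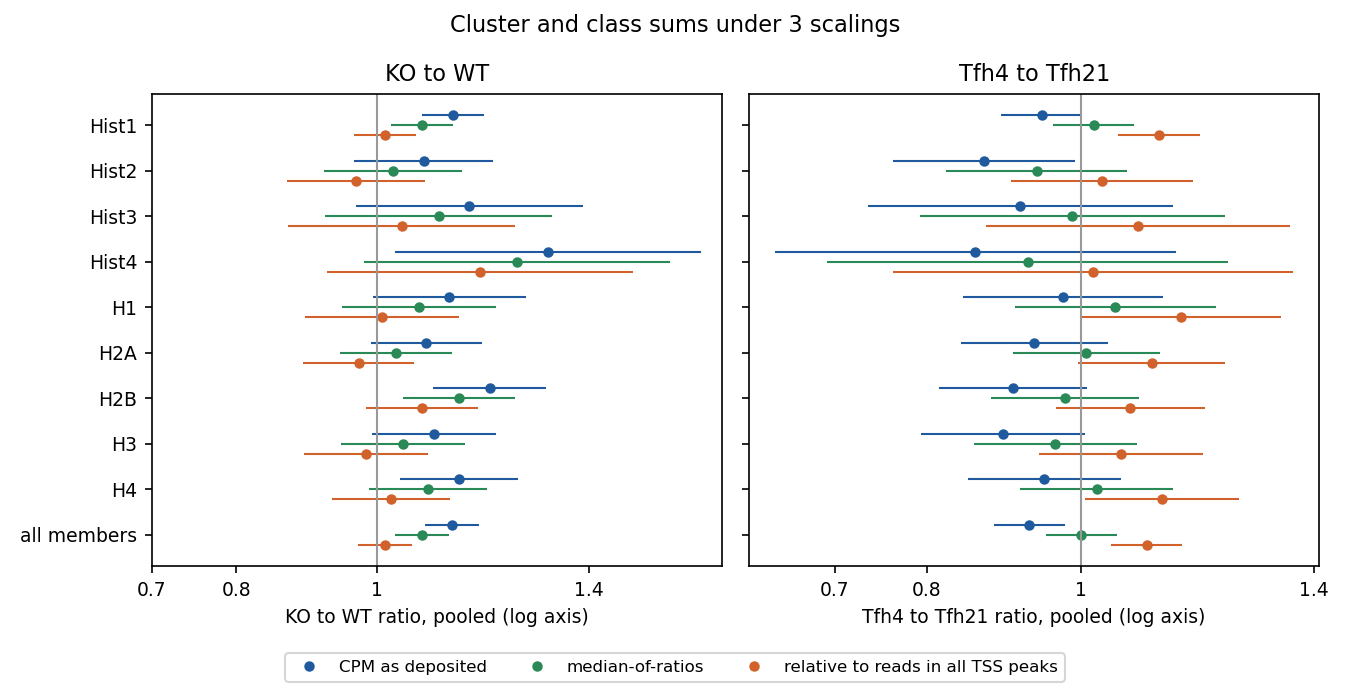
Pooled KO to WT (left) and Tfh4 to Tfh21 (right) ratios of the cluster and class sums are drawn on log axes with exact binomial 95% intervals, in 3 colours for the 3 scalings. For all members the KO to WT ratio goes from 1.13 to 1.07 to 1.01, and the Tfh4 to Tfh21 ratio from 0.928 to 1.0 to 1.10.

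Within a population there was 1 library per genotype and so no test, and members were counted past a 1.5-fold difference. In Tfh21, 2 of 29 members were higher in KO (5.4% of genes) and 0 lower (5.28%). In Tfh214, 3 of 28 were higher (5.11%) and 0 lower (6.91%). In Tfh4, 0 of 30 were higher (5.06%) and 1 was lower (7.83%). The members past this fold in Tfh21 were Hist3h2ba, at 2.14 (1.22 to 3.86), and Hist1h3g, at 2.04 (0.940 to 4.68) on 11 and 21 reads. In Tfh214 they were Hist1h2bc, at 1.59 (1.01 to 2.50), Hist1h2be, at 1.52 (1.11 to 2.08), and Hist2h2aa2, at 2.05 (1.11 to 3.81). Hist2h2aa2 was also the member lower in KO Tfh4, at 0.496 (0.263 to 0.900), and it and Hist1h3g were named after their values were seen. The median log2 difference of the members was 0.205 in Tfh21, 0.240 in Tfh214 and 0.097 in Tfh4, against 0.094, 0.061 and 0.010 for all genes.

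The populations are compared over both genotypes, in 3 contrasts that share libraries. No member was called between populations on gene sums. By deposited CPM 22 of 29 tested members stood lower in Tfh4 than in Tfh21, but relative to TSS reads 23 of 29 stood higher. All tested genes moved in the same way, with medians of -0.115 and 0.122 (log2) against -0.176 and 0.059 for the members. By limma on gene sums, 0 of 29 members and 0 of 10825 genes were called for Tfh214 minus Tfh21 (0.0%), for Tfh4 minus Tfh21 (0.0%) and for Tfh4 minus Tfh214 (0.0%). Relative to TSS reads 187 genes were called for Tfh4 minus Tfh21, all higher in Tfh4, and without WT Tfh4 121 genes by deposited CPM, with 0 members both times. At an unadjusted p under 0.05 there was 1 member in each contrast, with 552, 1377 and 1093 genes. Hist2h4 was that member for Tfh214 minus Tfh21, at -0.46 ± 0.20 (log2 ± SE, adjusted p = 0.952). Hist2h3b was the other, at -0.43 ± 0.18 for Tfh4 minus Tfh21 (adjusted p = 0.329) and -0.54 ± 0.18 for Tfh4 minus Tfh214 (adjusted p = 0.390). Markers of other cells differed in the same contrast: pooled over genotypes, the Tfh4 to Tfh21 ratio was 1.95 (1.34 to 2.88) for Ebf1 and 1.77 (1.06 to 3.05) for Fcer2a, both B cell markers, and 2.11 (1.08 to 4.37) for Cd8b1. For the Tfh markers Cxcr5, Maf and Il21 it was 0.683 (0.535 to 0.873), 0.711 (0.584 to 0.865) and 0.639 (0.438 to 0.928). The B cell list summed to 125.6 and 109.4 CPM in WT and KO Tfh21 and to 162.4 and 133.2 CPM in Tfh4, and the Tfh and T cell list to 445.4 and 547.0 against 416.5 and 397.2 CPM. These 6 genes were picked after their values were seen, 4 of them had enough reads for limma with 0 called, and their part in the members' values was not tested. Member differences above 0 were found in 14, 7 and 9 of 29 members for Tfh214 minus Tfh21, Tfh4 minus Tfh21 and Tfh4 minus Tfh214. In the same order, the medians were -0.022, -0.176 and -0.114 against -0.028, -0.115 and -0.077 for all genes. Ratios pooled over genotypes were above 1 in 12, 7 and 10 of 29 members against 42.8, 33.1 and 38.3% of all tested genes.

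On single peaks, the start of Hist2h3b was the one member called. Its peak (chr3:96072401-96074153, mm9; promoter printed above) was lower in Tfh4 than in Tfh214 by limma, at -0.54 ± 0.15 (log2 ± SE, adjusted p = 0.0448), where 178 of 8986 peaks were called, all lower in Tfh4 (1.98%). With sums of TSS peaks the adjusted p was 0.0384, and 156 of 7087 genes were called (2.2%). The call ended with median-of-ratios scaling (-0.46, adjusted p = 0.221) and relative to TSS reads (-0.34, adjusted p = 0.859). It also ended without KO Tfh214 (-0.27, adjusted p = 0.434), KO Tfh4 (-0.31, adjusted p = 0.366), KO Tfh21 (adjusted p = 0.136) or WT Tfh21 (adjusted p = 0.139), and was kept without WT Tfh214 (-0.80, adjusted p = 0.0291) or WT Tfh4 (-0.76, adjusted p = 0.0150). With median-of-ratios scaling 1 peak in all was called in this contrast and relative to TSS reads 0. For Tfh4 minus Tfh21, 118 peaks were called, all lower in Tfh4 (1.31%), against 0 under each of the other scalings, and 0 members among them (smallest adjusted p = 0.0844, at Hist2h3b). Without WT Tfh214, KO Tfh214 or WT Tfh4, Hist2h3b passed in this contrast too (adjusted p = 0.0464, 0.0488 and 0.0291).

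Pooled over genotypes, the Hist1 sum in Tfh4 was 0.944 (0.890 to 1.0) of that in Tfh21, with exact permutation p = 1, where 2 against 2 libraries cannot go below 0.33. In WT the ratio was 1.0 (0.921 to 1.09) and in KO 0.894 (0.823 to 0.971), and the difference between genotypes was not tested. Relative to TSS reads the pooled ratio turned to 1.12 (1.06 to 1.19). For Hist2 it was 0.869 (0.762 to 0.991; exact permutation p = 0.33) by deposited CPM and 1.03 (0.903 to 1.18) relative to TSS reads. All members together stood at 0.928 (0.881 to 0.976), while all TSS peaks stood at 0.844, a smaller distance for the members than for start sites in general. With median-of-ratios scaling the members' ratio was 1.0 (0.95 to 1.05), and relative to TSS reads it was 1.10 (1.04 to 1.16). Tfh214 against Tfh21 gave 0.960 (0.902 to 1.02; exact permutation p = 0.667) for Hist1 and 0.960 for all TSS peaks. The pooled Tfh4 to Tfh21 interval lay below 1 for 1 of 29 members, Hist2h3b at 0.742 (0.578 to 0.953), against 10.6% of genes, and above 1 for 0 against 5.2%.

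Related genes were read beside the members. Of 11 replication-independent variant histone genes, 10 had a peak and 8 were tested. By deposited CPM 7 lay above 0 for KO minus WT, with a median of 0.103, against 0.071 for all tested genes, and 0 were called by limma. H2afz, which encodes H2A.Z, stood at 81.1, 67.6 and 58.3 CPM in WT and 80.9, 81.4 and 68.6 CPM in KO. H3f3a and H3f3b, which encode H3.3, differed by 0.18 and 0.10 (log2). Of the 13 factors of histone gene transcription and mRNA processing all had a peak and 10 were tested, with 4 above 0, a median of -0.025 and 0 called. Eri1, an exonuclease acting on the histone mRNA end, differed by 0.39 ± 0.13 (log2 ± SE, adjusted p = 0.283 by limma) and Slbp, the stem-loop binding protein, by -0.14. Between Tfh4 and Tfh21 none of these 10 factor genes lay above 0, with a median of -0.319 and 0 called.

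Genes of dividing cells were read in the same way. Of 16, 15 had a peak and were tested. By deposited CPM 14 lay above 0 for KO minus WT with a median of 0.148, and 0 were called by limma. The median of all tested genes was 0.071 by that scaling and -0.086 relative to TSS reads. Pooled over populations, 63.4% of all tested genes had a KO to WT ratio above 1. By deposited CPM the list's sums ran from 608.8 to 692.1 CPM in WT and from 688.7 to 759.2 CPM in KO, with Mcm7 without a listed peak. The list was not rescaled to TSS reads, so its direction by that scaling is not known. B cell marker sums were lower in KO in each population, with 2 tested genes at a median of -0.27 and 0 called. The part of cycling cells or of other cell types in the histone results was not tested.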

How the data were processed

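ATAC-seq gave 6 libraries, from 50000 cells each, tagmented for 30 minutes at 37 °C and sequenced with 75-base paired reads, per the labels' protocols. The authors deposited a single table of peaks with CPM values, scaled to the reads in the listed peaks. Per the submitters' processing notes, Bowtie 1.3.0, MACS2 2.0, HOMER and mm9 were used, with no roles given. Dividing each CPM by the value of 1 read gave whole reads within 0.02 for all but at most 3 values per library, and these reads served for intervals, count models and sums. Symbols came from the table, and 48 of 48 member genes matched RefSeq names.

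Peaks were summed per gene. limma 3.58.1 (R 4.3.3) was fitted to log2(CPM + 1) of the 10825 genes with a mean of at least 20 reads, with genotype and population as additive terms, which leaves 2 residual degrees of freedom, a variance trend and Benjamini-Hochberg adjustment at 0.05 over all genes. Folds on this scale understate the change of low genes. On simulated Poisson counts (10659 genes, KO minus WT) it recovered 96.88% of 2-fold and 100% of 3-fold changes with 9 false calls. These counts had no population effect and no spread between libraries beyond counting error. The recovered shares therefore do not give the power in the real libraries. The largest KO minus WT difference of a tested member, 0.42 (log2), was below both folds. The deposited CPM were also rescaled by median-of-ratios factors and to the reads in TSS peaks. edgeR 4.0.16 and DESeq2 1.42.0 were alternatives. Ratios have exact binomial 95% intervals and levels exact Poisson 95% intervals, both for counting error only, since reads without molecular identifiers are not independent molecules. Cluster sums were compared by two-sided exact permutation tests, adjusted over 12 tests.

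Members named with all values are at most 25: the 4 with the most reads of each class, the 1 with the most of each cluster, then the others by reads. Members called by limma are named too. The members and lists were chosen with earlier results of these data known.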

Additional observations from a re-analysis of the deposited data

Results flagged for a closer look

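For 2 results the genotype ratio lay on opposite sides of 1 in 2 populations, with 1 library on each side. Whether the populations differ was not tested. The Hist2 sum had a KO to WT ratio of 1.37 (1.12 to 1.68) in Tfh214 and 0.919 (0.763 to 1.11) in Tfh4. Hist2h2aa2, an H2A gene of that cluster, had 2.05 (1.11 to 3.81) in Tfh214, on 21 WT and 27 KO reads, and 0.496 (0.263 to 0.90) in Tfh4, on 38 WT and 17 KO reads.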

How the results depend on the processing

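The fit pairs the KO and WT library of each population through its population term, and the labels give no replicate numbers for any other pairing. Of 104 values of member counts and Hist1 ratios under alternatives, 93 stayed within the margin set and 11 did not. Members called for Tfh4 minus Tfh214 were 0 on gene sums and 1 (Hist2h3b) on single peaks or TSS sums, and 0 to 1 on single peaks with 1 library left out, 1 without WT Tfh214 or WT Tfh4. Members higher in KO without overlap were 6, against 2 relative to TSS reads and 9 to 14 with 1 population left out (20.1 to 32.5% of all genes). The Hist1 ratio of KO to WT, 1.13, was 1.01 relative to TSS reads and 1.09 to 1.17 with 1 population left out. For Tfh4 to Tfh21 it was 1.12 relative to TSS reads and 0.894 to 1.0 with 1 genotype left out, and for Tfh214 to Tfh21 1.0 and 0.949 to 0.998. The cause was not tested. With 1 library left out, limma on gene sums called 0 members, while all genes called for KO minus WT numbered 1 to 85 (83 without WT Tfh4, 85 without KO Tfh4) and for Tfh4 minus Tfh21 0 to 121 (121 without WT Tfh4). Of 24 named members tested, 13 kept their KO minus WT sign in every alternative and 11 did not, 4 of them turning with median-of-ratios scaling and 8 relative to TSS reads. Counting error limits single members: with 559 reads, Hist1h2be still had a KO to WT interval of 1.02 to 1.43.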
